A study of Mus musculus with 12 samples.

Results

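The levels of 10 genes of meiotic recombination and chromosome synapsis were followed in WT and Zar1/2-null mouse oocytes, out of 23230 genes in the table. The genes were Hormad1, Hormad2, Sycp2 and Sycp3 of the chromosome axis, Sycp1 and Syce1 of the synaptonemal complex centre, Dmc1 of strand exchange, Msh4 and Msh5 of crossover formation, and Tex15. They were chosen by name as prophase I genes, after Tex15 had been seen higher in Zar1/2-null GV oocytes, so the GV values of WT and Zar1/2-null oocytes are described here with no test. For the same reason Tex15 is tested in no comparison that involves GV libraries.

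Oocytes of C57BL6/ICR hybrid females were sequenced by Smart-seq2 at 3 stages and in 2 genotypes, with 2 libraries in each of the 6 groups and 10 oocytes pooled per library. Growing oocytes were labelled as taken from females 13.5 days old, GV oocytes (fully grown, with the germinal vesicle nucleus intact) from females 21 days old at 44 h after PMSG, and MII oocytes at 16 h after hCG, with no age in the labels. The methods of the study give a younger age for the growing oocytes than the labels do. The Zar1/2-null females carried germline CRISPR/Cas9 null alleles of both Zar1 and Zar2, present in every cell of the animal, and the WT females carried neither allele. The label MII names oocytes by the hour of collection and does not itself give their nuclear stage. The study reports that ovulated oocytes lacking both genes had stopped in metaphase or telophase of meiosis I. Libraries named Zar1/2-null MII are thus matched to WT MII libraries by hour of collection and not by nuclear stage. The study also held maturing oocytes in meiosis I with nocodazole, and by RT-qPCR the degradation of selected mRNAs was unchanged. The part of nuclear stage in the comparisons that use the Zar1/2-null MII libraries was not tested here. The values are FPKM, a fragment count divided by exon length and by the mapped fragments of the library, which had been multiplied by a factor from the ERCC spike-in, so that a level follows the RNA content of the 10 oocytes. Less RNA per oocyte and fewer oocytes contributing RNA cannot be told apart in such pools, and nothing in the labels says whether the 2 libraries of a group came from different animals, so their spread may be technical.

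In female mice the prophase I events that these genes serve are completed around birth. Homologs are paired along protein axes that carry HORMAD and SYCP2/SYCP3 proteins, breaks are repaired with the recombinase DMC1, and SYCP1 filaments with central element proteins such as SYCE1 hold the axes together in the synaptonemal complex. The oocyte then rests in dictyate arrest while it grows, so the transcripts measured here belong to a cell in which the complex has already been taken apart.

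The libraries had the gene profile of oocytes. The summed level of 11 oocyte markers was 8926 to 17700 FPKM in growing and GV libraries and 3516 to 7066 FPKM in MII libraries. Of 12 granulosa and cumulus markers, 4 reached 1 FPKM in any library, and their summed level was 13.3 to 15.4 FPKM in Zar1/2-null GV libraries against 16.2 to 18.0 FPKM in WT GV libraries. Cyp19a1 and Nr5a2 made up most of that sum, while Inha was higher in the Zar1/2-null GV libraries (1.99 and 1.73 FPKM) than in the WT GV libraries (0.410 and 0.512 FPKM), as was Inhba (0.140 and 0.200 FPKM against 0 in both). Of the markers of these cells, Ptx3 was listed at 0 in all 12 libraries and Amh in all but the first Zar1/2-null GV library, where it was at 0.0317 FPKM. At MII the 12 granulosa and cumulus markers summed to 7.22 to 8.45 FPKM in Zar1/2-null and 4.83 to 5.24 FPKM in WT libraries. In growing oocytes they summed to 13.7 to 21.4 FPKM in Zar1/2-null and 26.0 to 29.9 FPKM in WT libraries. The 6 immune markers summed to 3.17 to 3.24 FPKM in Zar1/2-null growing and 0.498 to 1.72 FPKM in WT growing libraries. The part of any of these cells in the levels of Tex15 was not tested. Zar1l, the symbol of Zar2, was at 639 and 644 FPKM in WT growing oocytes and at 17.5 and 13.2 FPKM in Zar1/2-null growing oocytes. Zar1 RNA was less reduced in growing oocytes, from 603 and 725 FPKM to 407 and 460 FPKM, and at MII it was higher in Zar1/2-null oocytes (190 and 194 FPKM) than in WT oocytes (83.6 and 72.4 FPKM). The ERCC factor ran from 0.225 to 1 and was smallest in MII libraries, where 5688 to 6536 genes reached 1 FPKM.

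Tex15 encodes a large germ cell protein that is needed for meiotic recombination and for piRNA-directed silencing in the male germ line. It lies at chr8:34627210-34696054 on the plus strand of mm9. Its level was 0.608 and 0.332 FPKM in WT growing oocytes and 0.296 and 0.458 FPKM in Zar1/2-null growing oocytes. In GV oocytes it stood at 0.575 and 0.599 FPKM in the WT libraries and at 13.7 and 6.93 FPKM in the Zar1/2-null libraries. In MII oocytes it stood at 0.115 and 0.0697 FPKM in the WT libraries and at 2.95 and 4.18 FPKM in the Zar1/2-null libraries. The 8 libraries that were WT or growing thus all lay under 1 FPKM, and the 4 Zar1/2-null libraries of later stages all lay above it.

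**Figure D1:**
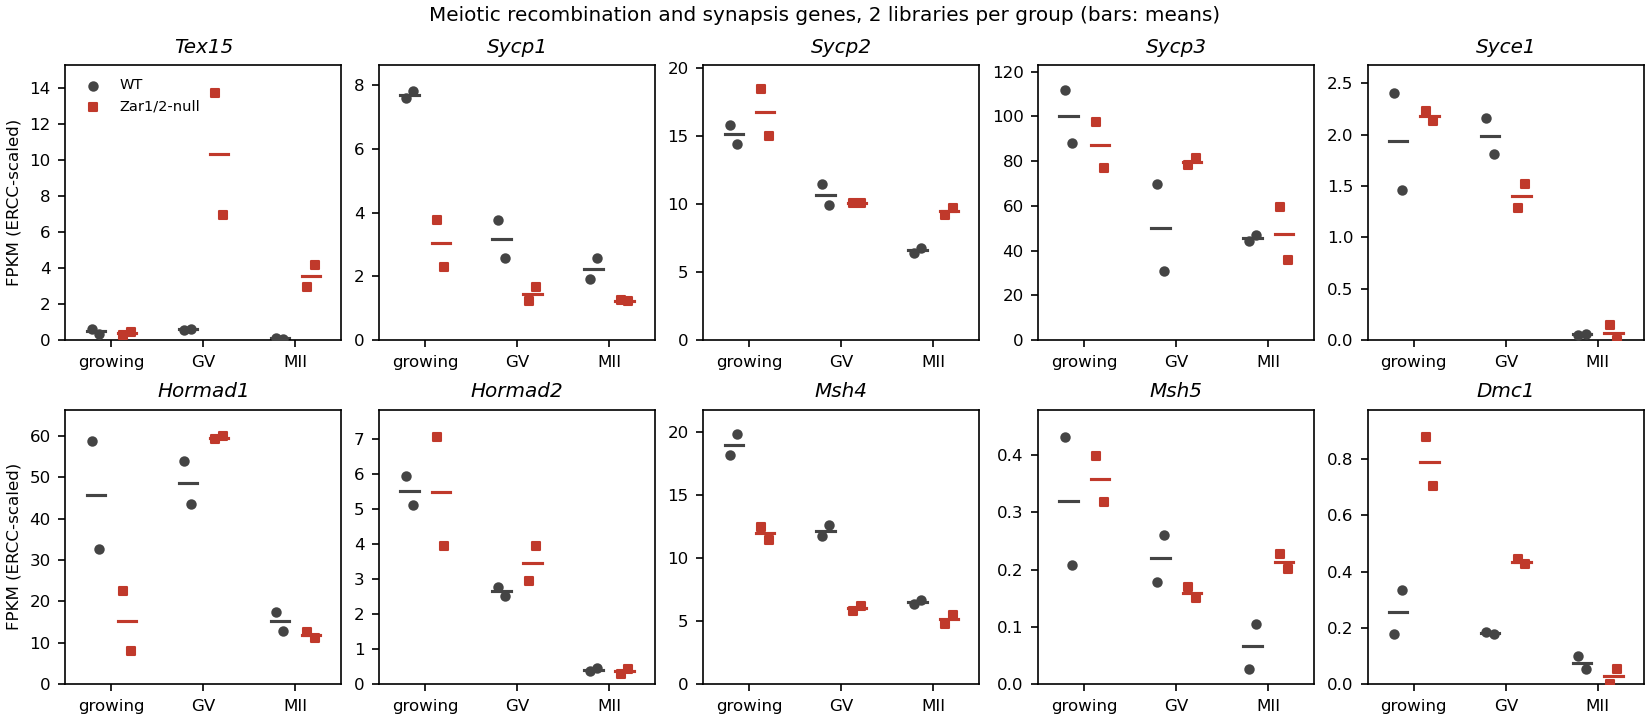
Level of each of the 10 genes (vertical axis, ERCC-scaled FPKM, from 0 and with its own scale in each panel) in growing, GV and MII oocytes. Circles are WT libraries, squares are Zar1/2-null libraries and short bars are the means of 2 libraries; Tex15 stands near 0 except in the Zar1/2-null GV libraries (13.7 and 6.93 FPKM) and Zar1/2-null MII libraries (2.95 and 4.18 FPKM).

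The Tex15 values at GV had a mean of 10.3 ± 4.79 FPKM (SD, n = 2) in Zar1/2-null oocytes and 0.587 ± 0.0173 FPKM (SD, n = 2) in WT oocytes, a 17.6-fold ratio that is given as a description because it led to the choice of this gene. The first Zar1/2-null GV library was 1.98 times the second, the widest gap between replicates among the 8 genes that reached 1 FPKM in that group. The rule for choosing the members names the GV oocytes and not the MII oocytes, although earlier results of all stages were known when it was made. At MII the mean was 3.56 ± 0.869 FPKM (SD, n = 2) in Zar1/2-null oocytes against 0.0922 ± 0.0319 FPKM (SD, n = 2) in WT oocytes, a 38.6-fold ratio, or 3.56-fold when values under 1 FPKM are set to 1. In a limma fit of log2(FPKM + 1) to the 12 libraries together, the log2 fold change was 2.05 with a standard error of 0.24 (adjusted p = 5.65e-05 over 11502 genes), and it passed the threshold of 0.05 under each of 11 alternatives, with adjusted p-values from 1.53e-06 to 0.00399. Tex15 reached 1 FPKM only in the 4 Zar1/2-null GV and MII libraries and so entered the 11502 genes through them. The fit on all 23230 genes, which has no such filter, gave the same log2 fold change with an adjusted p of 0.00399. The scale with 1 FPKM added understates the change of a gene as low as Tex15, and of any other gene near or under 1 FPKM.

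In growing oocytes the Tex15 libraries of both genotypes overlapped, with a log2 fold change of -0.09 ± 0.24 (SE, limma, adjusted p = 0.802). The genotype effect at MII minus that at growing, tested as an interaction, was 2.14 on the log2 scale (SE 0.34, adjusted p = 0.000784), and passed the threshold in 15 of 15 alternatives, with an adjusted p of 0.0168 in the fit with no filter. Of the 8 members tested, Tex15 was the 1 called in this interaction (2 at an unadjusted p under 0.05), where 30.6% of all genes tested were called.

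Low FPKM values are whole multiples of the value of 1 fragment, which gave the fragments behind 5 of the members. For Tex15 the smallest whole numbers that matched were 56 and 37 in WT growing, 32 and 67 in Zar1/2-null growing, 64 and 84 in WT GV, and 43 and 33 in WT MII libraries. The Zar1/2-null GV libraries held 2424 and 1073 fragments and the Zar1/2-null MII libraries 951 and 1861. The 95% exact Poisson interval of the lowest of these later Zar1/2-null libraries was 892 to 1013 fragments, and that of the highest WT library was 67 to 104 fragments. These intervals cover counting error alone, and the reads carried no molecular identifiers. Relative depth lay between 0.914 and 1.24 of the first WT growing library. At least 33 fragments were assigned to Tex15 in every WT library. Whether all of these came from its transcript was not tested.

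The scaling changed the size of the Tex15 difference between genotypes and the order of the Zar1/2-null stages. At MII the log2 fold change of 2.05 became 3.33 without the ERCC factor and 3.59 under median scaling, and 4.24 with 0.1 FPKM added in place of 1. The interaction of 2.14 became 3.34, 3.63 and 4.48. Without the ERCC factor, its level was 25.7 and 11.9 FPKM in Zar1/2-null GV libraries and 10.4 and 16.6 FPKM in Zar1/2-null MII libraries, which overlap. With the factor, the Zar1/2-null MII libraries lay below both Zar1/2-null GV libraries. WT values without the factor were 0.306 to 0.860 FPKM over the 6 libraries.

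Hormad1 encodes a HORMA-domain protein that coats unsynapsed chromosome axes. In growing oocytes it was at 58.7 and 32.7 FPKM in WT libraries and 22.6 and 7.93 FPKM in Zar1/2-null libraries, which did not overlap. The means were 45.7 ± 18.4 and 15.2 ± 10.3 FPKM (SD, n = 2 each), with a log2 fold change of -1.63 ± 0.38 (SE, limma, adjusted p = 0.00734). This call depended on individual libraries, since it was lost without the first WT growing library (-1.22, adjusted p = 0.0805) and without the second Zar1/2-null growing library (-0.93, adjusted p = 0.0637). It was also lost with no filter on low genes (adjusted p = 0.0594) and with the 4 growing libraries alone (adjusted p = 0.0724). At GV the order of the genotypes was the opposite, with 54.0 and 43.4 FPKM in WT libraries and 59.2 and 60.0 FPKM in Zar1/2-null libraries. At MII Hormad1 was at 17.5 and 12.9 FPKM in WT and 12.5 and 11.2 FPKM in Zar1/2-null oocytes, a log2 difference of -0.33 that did not pass the test (adjusted p = 0.609).

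Hormad2, the partner of HORMAD1 on the axis, showed no such difference. Its growing libraries were at 5.94 and 5.11 FPKM in WT and 7.05 and 3.94 FPKM in Zar1/2-null oocytes, with a log2 fold change of -0.05 ± 0.21 (SE, limma, adjusted p = 0.883). The Zar1/2-null values enclosed those of WT. At MII it had fallen to 0.365 and 0.456 FPKM in WT and 0.290 and 0.437 FPKM in Zar1/2-null libraries, values that rest on 13 to 30 fragments.

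Sycp3, which builds the lateral elements together with SYCP2, was the most abundant member per kilobase in the WT growing libraries. It stood at 112 and 88.3 FPKM in WT growing and 97.3 and 77.0 FPKM in Zar1/2-null growing oocytes, which overlapped (adjusted p = 0.678). Its WT GV libraries lay far apart, at 69.9 and 30.7 FPKM, while the Zar1/2-null GV libraries were at 78.1 and 81.5 FPKM. At MII the libraries overlapped again, at 44.0 and 47.0 FPKM in WT and 59.3 and 35.8 FPKM in Zar1/2-null oocytes (log2 fold change 0.02 ± 0.33, SE, adjusted p = 0.989). Sycp2 was at 15.8 and 14.4 FPKM in WT growing and 18.5 and 15.0 FPKM in Zar1/2-null growing oocytes, where it did not pass the test (adjusted p = 0.500). At MII it was at 6.42 and 6.78 FPKM in WT and 9.21 and 9.70 FPKM in Zar1/2-null oocytes, which did not overlap. The log2 fold change of Sycp2 at MII was 0.46 ± 0.14 (SE, limma, adjusted p = 0.0289), a call that was lost without any 1 of the 4 MII libraries (adjusted p = 0.0766 to 0.135) and with either scaling that leaves out the ERCC factor (0.27 and 0.15).

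Sycp1 encodes the transverse filament that links paired axes. It was at 7.60 and 7.81 FPKM in WT growing oocytes and at 3.77 and 2.31 FPKM in Zar1/2-null growing oocytes, a 2.54-fold lower mean with no overlap. The log2 fold change was -1.13 ± 0.20 (SE, limma, adjusted p = 0.00142). Of the 3 members called lower in growing oocytes, Sycp1 was the 1 that passed the threshold under all 11 alternatives, with adjusted p-values up to 0.0221. Its lower level in Zar1/2-null oocytes was seen at the other stages too, with 3.76 and 2.59 FPKM against 1.23 and 1.67 FPKM at GV. At MII, values of 1.91 and 2.58 FPKM in WT and 1.26 and 1.21 FPKM in Zar1/2-null oocytes did not overlap, but the log2 fold change of -0.53 ± 0.20 missed the threshold (SE, limma, adjusted p = 0.0663). It passed without the ERCC factor (-0.94, adjusted p = 0.00217).

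Syce1, a central element gene, was at 2.41 and 1.46 FPKM in WT growing and 2.23 and 2.14 FPKM in Zar1/2-null growing oocytes (adjusted p = 0.535). At GV it stood at 2.17 and 1.82 FPKM in WT and 1.29 and 1.52 FPKM in Zar1/2-null libraries. By MII it was close to undetected, with 3 and 4 fragments in the WT libraries and 7 fragments in the first Zar1/2-null library, while the second was listed at 0.

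Msh4 and Msh5 encode the subunits of a heterodimer that stabilises crossover intermediates, and their transcripts differed widely in level. Msh4 was at 18.2 and 19.8 FPKM in WT growing oocytes and at 12.5 and 11.4 FPKM in Zar1/2-null growing oocytes, 1.59-fold lower with no overlap. Its log2 fold change was -0.63 ± 0.13 (SE, limma, adjusted p = 0.00381). The call was lost without the ERCC factor (-0.36, adjusted p = 0.121) and under median scaling (-0.46, adjusted p = 0.0529). At GV it was at 11.8 and 12.6 FPKM in WT and 5.79 and 6.23 FPKM in Zar1/2-null libraries. At MII it was at 6.34 and 6.69 FPKM in WT and 4.81 and 5.47 FPKM in Zar1/2-null oocytes, where the log2 difference of -0.29 ± 0.13 missed the threshold (SE, limma, adjusted p = 0.116). Msh4 was called lower at MII without the ERCC factor (-0.56, adjusted p = 0.0136) and under median scaling (-0.69, adjusted p = 0.00266).

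Msh5 stayed under 1 FPKM in all 12 libraries and was not part of the fit over 11502 genes. It was read from 12 and 7 fragments in WT growing, 13 and 14 in Zar1/2-null growing, 6 and 11 in WT GV, and 9 and 7 in Zar1/2-null GV libraries. In MII oocytes it was read from 3 and 15 fragments in WT and 22 and 27 fragments in Zar1/2-null libraries. In a fit on all 23230 genes it passed no test at MII (log2 fold change 0.19, adjusted p = 0.263) or in growing oocytes (0.05, adjusted p = 0.932).

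Dmc1, the meiotic recombinase, was also under 1 FPKM in every library. In growing oocytes it was at 0.179 and 0.333 FPKM in WT libraries (4 and 9 fragments) and 0.877 and 0.705 FPKM in Zar1/2-null libraries (23 and 25 fragments). The 95% Poisson intervals of those 4 libraries were 1.1 to 10.2 and 4.1 to 17.1 fragments in WT, and 14.6 to 34.5 and 16.2 to 36.9 fragments in Zar1/2-null oocytes. In the fit on all 23230 genes the difference passed the threshold, with a log2 fold change of 0.51 ± 0.07 (SE, limma, adjusted p = 0.00401). The filter at 1 FPKM therefore left out the 1 member called higher in Zar1/2-null growing oocytes in that fit. How many of the 23230 genes were called in it is not given, and the values of Dmc1 rest on 4 to 25 fragments. At GV, Dmc1 had 5 and 6 fragments in WT and 19 and 16 in Zar1/2-null libraries. At MII the excess was gone, with 9 and 6 fragments in WT, 6 in the second Zar1/2-null library and a value listed at 0 in the first. The genotype effect at MII minus that at growing was -0.58 ± 0.10 (SE, limma, adjusted p = 0.0105) in the fit on all genes.

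Of the 8 members that reached 1 FPKM in a library and were tested in growing oocytes, 3 were called lower by limma (Hormad1, Sycp1 and Msh4), where 24.4% of all genes were called lower, and 0 were called higher (0 at an unadjusted p under 0.05), where 10.6% of all genes were. The median log2 fold change of the 8 was -0.14, against -0.16 over all genes tested. At MII 2 of 8 were called higher (Tex15 and Sycp2), where 21.5% of all genes were, and 0 were called lower (2 at an unadjusted p under 0.05), where 10.3% of all genes were. Their median was -0.02, against 0.06 over all genes tested. Without the ERCC factor, 1 member was called higher and 2 lower at MII, where 2831 and 2694 of 11502 genes were. As shares, these counts were near those of all genes.

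**Figure D2:**
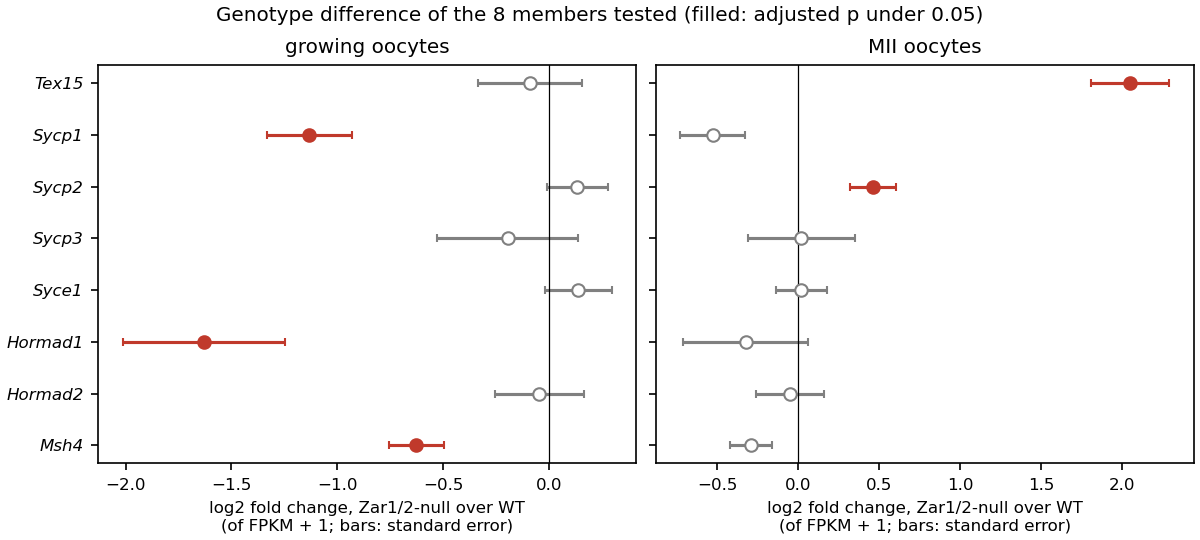
Log2 fold change of FPKM + 1 (horizontal axis, Zar1/2-null over WT, with the standard error as a bar) of the 8 members tested, in growing oocytes (left) and MII oocytes (right). Filled points passed an adjusted p of 0.05: Hormad1 (-1.63), Sycp1 (-1.13) and Msh4 (-0.63) on the left, and Tex15 (2.05) and Sycp2 (0.46) on the right.

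Hormad1, Sycp1 and Msh4, the members called lower in growing oocytes, all lie on chromosome 3 of mm9, at chr3:95363599-95391593, chr3:102622422-102740023 and chr3:153520111-153569102. The 250 bases before their RefSeq starts (build GRCm38.p6) are shown because these 3 genes moved the same way. Matches to CACGTG (the E box, its own reverse complement) and to TTCCCGC (an E2F element, read on either strand, so as GCGGGAA on the gene's strand) are in capitals, and the last base printed lies next to the start. The Hormad1 window is chr3:95559427-95559676 on the plus strand, that of Sycp1 is chr3:102936101-102936350 and that of Msh4 is chr3:153904892-153905141, both on the minus strand.
Hormad1: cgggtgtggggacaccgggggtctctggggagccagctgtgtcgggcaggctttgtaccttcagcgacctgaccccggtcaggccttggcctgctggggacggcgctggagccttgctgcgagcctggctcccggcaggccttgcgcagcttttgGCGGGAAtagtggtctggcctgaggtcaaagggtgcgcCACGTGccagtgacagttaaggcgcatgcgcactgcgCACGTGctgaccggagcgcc
Sycp1: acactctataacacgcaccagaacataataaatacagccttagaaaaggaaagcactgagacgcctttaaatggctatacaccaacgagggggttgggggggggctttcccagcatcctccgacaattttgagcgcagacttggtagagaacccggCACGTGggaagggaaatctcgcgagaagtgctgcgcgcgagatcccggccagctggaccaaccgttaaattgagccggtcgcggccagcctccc
Msh4: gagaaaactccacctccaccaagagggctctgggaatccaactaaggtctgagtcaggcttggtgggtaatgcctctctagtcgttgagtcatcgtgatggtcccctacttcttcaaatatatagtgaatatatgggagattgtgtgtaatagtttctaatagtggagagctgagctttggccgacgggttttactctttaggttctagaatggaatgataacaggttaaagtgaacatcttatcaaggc

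Neither motif was found in all 3 windows. Hormad1 held CACGTG at 57 and 20 bases before the start and GCGGGAA at 95 bases, Sycp1 held CACGTG at 94 bases, and Msh4 held neither. The count of CG dinucleotides was 19 for Hormad1, 17 for Sycp1 and 4 for Msh4, against a median of 6 over all windows. Among the 9 members with a window, 3 held CACGTG (Hormad1, Sycp1 and Sycp3) and 3 held TTCCCGC or its complement (Hormad1, Msh5 and Sycp3), where 6.02% and 3.82% of 32851 windows of that length did. Sycp3, which has both motifs, was not called in growing oocytes. These matches are descriptions of letters in a window and were not tested against the levels.

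In GV oocytes, which are described with no test, Tex15 was 17.6-fold higher and Dmc1 2.40-fold higher in Zar1/2-null oocytes by their means. Sycp3 was 1.59-fold, Hormad2 1.30-fold and Hormad1 1.22-fold higher. Sycp1 was 2.19-fold, Msh4 2.03-fold, Syce1 1.42-fold and Msh5 1.38-fold lower. Over all 11502 genes the median log2 fold change at GV was -0.38, and 40.6% were called lower. The libraries of the 2 genotypes overlapped for Sycp2, at 11.4 and 9.91 FPKM in WT and 10.1 and 10.1 FPKM in Zar1/2-null oocytes. Sycp1 and Msh4 had lower means in Zar1/2-null oocytes at each of the 3 stages, but neither passed the test at MII with the ERCC factor. Tex15 had higher means at the 2 later stages. The share of all genes with no overlap is not given, so overlap of libraries is a description only. Without the ERCC factor the GV libraries of Sycp1 and Msh4 still did not overlap, but those of Syce1 did, and Sycp2 was higher in both Zar1/2-null GV libraries (18.9 and 17.3 FPKM) than in both WT GV libraries (13.7 and 14.2 FPKM).

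The growth phase was compared as GV against growing oocytes within each genotype. In WT oocytes 5 of 7 members were called lower (28.7% of all genes were) and 0 higher (0 at an unadjusted p under 0.05; 2.77% of all genes were called). Sycp3 fell by 1.08 on the log2 scale (adjusted p = 0.0309), Sycp1 by 1.07 (adjusted p = 0.00414), Hormad2 by 0.84 (adjusted p = 0.0141), Msh4 by 0.60 (adjusted p = 0.0081) and Sycp2 by 0.47 (adjusted p = 0.0305). Hormad1 and Syce1 did not pass the test, with log2 changes of 0.14 and 0.04. Of the 5 calls, 1 was left without the ERCC factor (Sycp1), where 372 of 11502 genes were lower, and 0 under median scaling, where 263 were. Leaving out 1 library at a time also cut the count: 2 were left without the first WT growing library, 1 without the second, and 1 without the second WT GV library.

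In Zar1/2-null oocytes 4 of 7 members were called lower from growing to GV (55.9% of all genes were), namely Msh4, Sycp1, Sycp2 and Syce1, with log2 changes from -0.88 to -0.41. Hormad1 was called higher, from 22.6 and 7.93 FPKM to 59.2 and 60.0 FPKM, a 3.91-fold rise of the mean. Its log2 fold change was 2.06 ± 0.38 (SE, limma, adjusted p = 0.000944), where 4.76% of all genes were called higher. The rise passed the threshold under all 11 alternatives, with adjusted p-values up to 0.0181. It shares the Zar1/2-null growing libraries with the comparison of genotypes in which Hormad1 was low, so the 2 results are not independent. The 4 lower calls did not hold without the ERCC factor, where 0 members and 2455 of 11502 genes were called lower.

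From GV to MII the ERCC factor decided the direction of most members. In WT oocytes 5 of 7 members were called lower as scaled, where 93.4% of all genes were, and 0 higher (0 at an unadjusted p under 0.05; 0.104% of all genes were called). The median of the 7 was -0.81, against -1.28 over all genes tested, -0.43 over all genes without the factor and 0.16 under median scaling. Hormad1 fell by 1.62, Hormad2 by 1.37, Msh4 by 0.81 and Sycp2 by 0.62 on the log2 scale, and Syce1 from a mean of 1.99 FPKM to 3 and 4 fragments (adjusted p = 3.19e-06). With no 1 FPKM added, the means fell 3.20-fold for Hormad1 and 6.45-fold for Hormad2. Sycp3 stood at 50.3 ± 27.7 FPKM in GV and 45.5 ± 2.07 FPKM in MII oocytes (SD, n = 2 each), a log2 change of -0.03 ± 0.33 (SE, adjusted p = 0.937). Without the factor, 4 of the 7 were called higher instead (Sycp3, Sycp1, Sycp2 and Msh4, with log2 changes of 1.71, 1.09, 1.01 and 0.81), and 2 lower (Syce1 and Hormad2). Of all 11502 genes, 2267 were called higher and 5473 lower in that fit. Syce1 was the 1 member called lower in WT maturation under all 11 alternatives.

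In Zar1/2-null oocytes 3 of 7 members were called lower from GV to MII, where 68.7% of all genes were, and 0 higher (0 at an unadjusted p under 0.05; 0.209% of all genes were called). Hormad1 fell by 2.24 (adjusted p = 0.000292), Hormad2 by 1.70 (adjusted p = 2.07e-05) and Syce1 by 1.17 (adjusted p = 4.62e-05) on the log2 scale. The 1 FPKM added sets that order, since the means fell 5.03-fold for Hormad1, 9.47-fold for Hormad2 and 19.8-fold for Syce1. The fold of Syce1 rests on few fragments at MII. The calls of Hormad2 and Syce1 held under all 11 alternatives, and that of Hormad1 was lost under median scaling. Sycp2, Sycp1 and Msh4 turned to higher without the factor, as in WT oocytes.

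**Figure D3:**
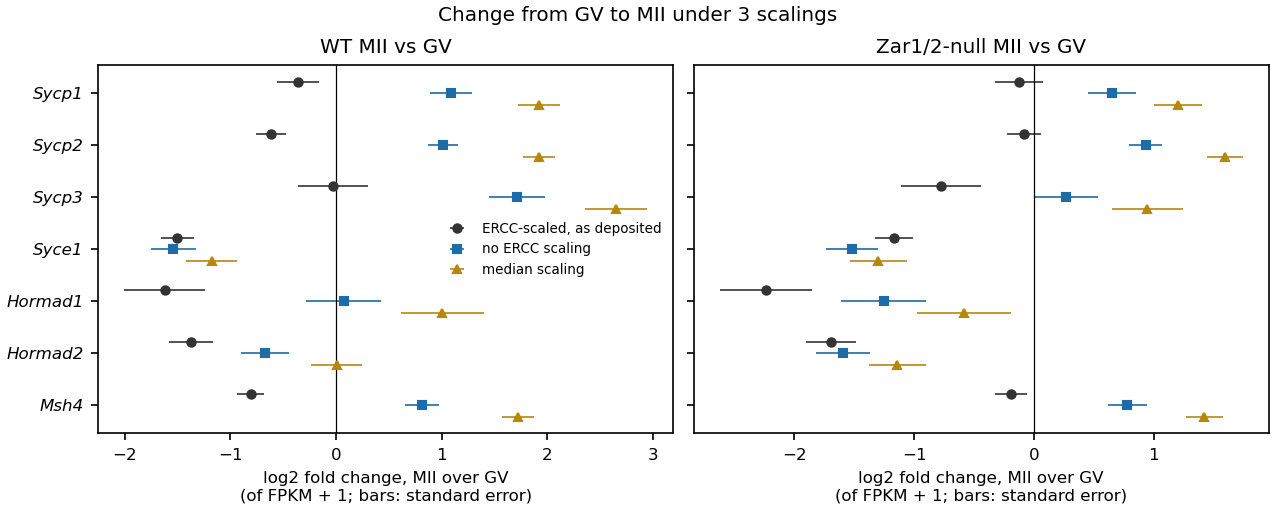
Log2 fold change of FPKM + 1 from GV to MII (horizontal axis, MII over GV, with the standard error as a bar) of the 7 members tested, in WT (left) and Zar1/2-null (right) oocytes under 3 scalings. Circles are the deposited ERCC-scaled values, squares leave out the ERCC factor and triangles set every library to the same median; Syce1 stays below 0 throughout, while Sycp1, Sycp2 and Msh4 change sides.

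The genes whose levels followed Tex15 most closely were sought among 7691 genes with at least 5 FPKM in a library, by Pearson's r of log2(FPKM + 1) over the 12 libraries. The closest were 1190007I07Rik (r = 0.939), Kcnh1 (r = 0.905), Spesp1 (r = 0.864), Ccdc34 (r = 0.817) and Tgm4 (r = 0.806), and the values share the libraries and their scaling. The ranking used the GV values that led to the choice of Tex15. Higher levels of these genes in Zar1/2-null GV libraries therefore follow from how they were picked. 1190007I07Rik was at 4.52 and 4.38 FPKM in WT GV and 20.5 and 25.2 FPKM in Zar1/2-null GV libraries. Spesp1, a sperm equatorial segment gene, was the most like Tex15 in being near 0 elsewhere. It was listed at 0 in both WT GV and both WT MII libraries, and stood at 3.38 and 7.84 FPKM in Zar1/2-null GV and 0.951 and 0.334 FPKM in Zar1/2-null MII libraries. Of the 2 Zar1/2-null GV libraries, Spesp1 was lower in the first and Tex15 in the second. No other member was among these 5 genes.

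**Figure D4:**
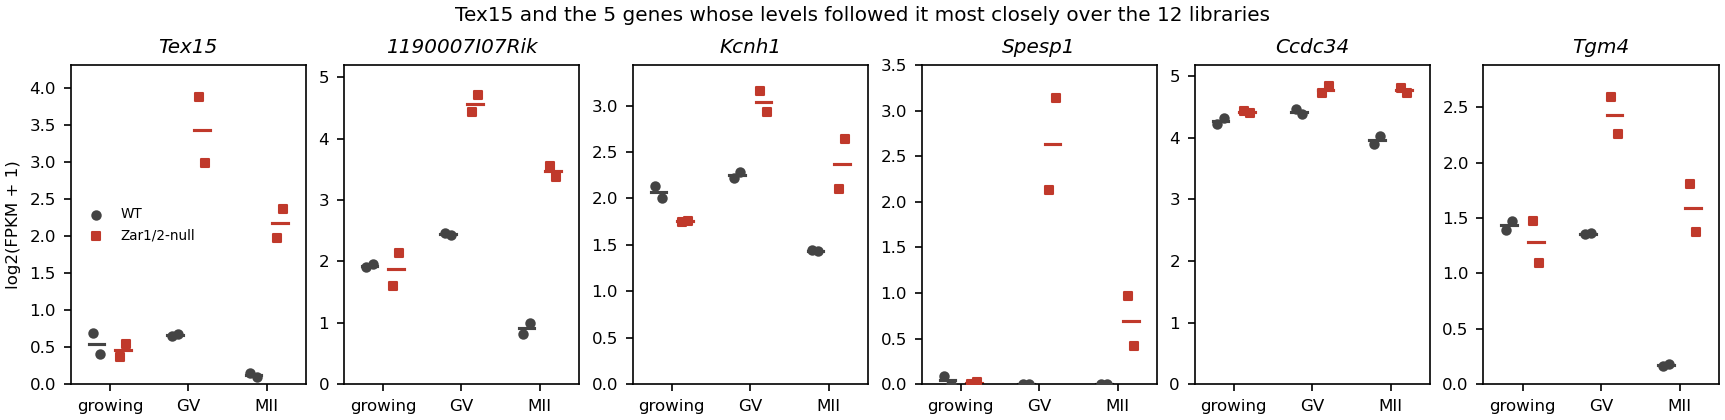
Level on the log2(FPKM + 1) scale (vertical axis, from 0 and with its own scale in each panel) of Tex15 and the 5 genes with the highest Pearson's r to it over 12 libraries. Circles are WT libraries, squares are Zar1/2-null libraries and short bars are means. In each panel the Zar1/2-null GV libraries are above the WT GV libraries, which the ranking by r favours, and Ccdc34 has the smallest range.

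Within 200000 bases of Tex15 on mm9 lie 7 listed protein-coding genes, Wrn, Purg, Ppp2cb, Ubxn8, Gsr, Gtf2e2 and Rbpms. Ppp2cb, which lies 14039 bases beyond Tex15 on the same strand, had means of 1.20 FPKM in WT growing and 4.21 FPKM in Zar1/2-null growing oocytes, and of 0.625 and 0.331 FPKM at GV. At MII it was listed at 0 in WT and had a mean of 0.00779 FPKM in Zar1/2-null oocytes. Rbpms was called lower in Zar1/2-null growing oocytes (38.9 against 62.9 FPKM, limma, adjusted p = 0.00903). At MII it was called higher (23.7 against 11.49 FPKM, adjusted p = 0.000852). Its GV means of 61.7 against 53.6 FPKM did not pass (log2 fold change 0.20, adjusted p = 0.35). Gtf2e2 was lower at GV (50.3 against 76.1 FPKM) and higher at MII (9.39 against 5.05 FPKM). The means of Wrn, Purg, Ubxn8 and Gsr at GV were 5.59, 1.55, 8.69 and 1.19 FPKM in WT and 2.42, 1.15, 5.19 and 1.17 FPKM in Zar1/2-null oocytes, where the median log2 fold change of all genes was -0.38.

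Other genes of meiotic prophase were listed by role to place the members, 59 in all, of which 54 were in the table and 42 reached 1 FPKM in a library. In Zar1/2-null growing oocytes 11 of 42 were called lower and 3 higher, at GV 20 lower and 0 higher (0 at an unadjusted p under 0.05), and at MII 7 lower and 9 higher. Of all genes, 24.4% were called lower and 10.6% higher in growing oocytes, and 10.3% lower and 21.5% higher at MII. At GV 40.6% of all genes were called lower and 2.83% higher, in a contrast that the choice of the members had used. The medians of the 42 were -0.23, -0.37 and 0.04 in growing, GV and MII oocytes, against -0.16, -0.38 and 0.06 over all genes tested. Without the ERCC factor, 5 were called lower and 5 higher in growing oocytes and 7 lower and 3 higher at GV. Of all 11502 genes, 1412 were then lower and 1711 higher in growing oocytes, and 1554 lower and 827 higher at GV. Under median scaling 5 list genes were called lower and 3 higher at GV, where 1059 of all genes were lower and 1077 higher. Fewer lower calls at GV were thus left under both scalings, in the lists and over all genes.

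The largest differences in growing oocytes were in genes of break formation and crossover. Mei4, needed for meiotic double-strand breaks, was at 11.2 and 12.9 FPKM in WT and 0.583 and 0.608 FPKM in Zar1/2-null growing oocytes (log2 fold change -3.03, adjusted p = 2.54e-05). At GV it was at 16.6 and 7.70 FPKM in WT and 0.698 and 0.964 FPKM in Zar1/2-null oocytes (-2.76, adjusted p = 4.62e-05). Tex11 and Ccnb1ip1, which act in crossover formation, fell from means of 12.1 to 1.87 FPKM and of 39.8 to 8.19 FPKM in growing oocytes. Meiob (listed as 4930528F23Rik), a partner of RPA on single-stranded DNA, fell from 5.82 to 1.01 FPKM. These 4 genes were called lower in growing oocytes under all 11 alternatives. Of 12 crossover genes tested, 6 were lower and 2 higher in growing oocytes (24.4% and 10.6% of all genes), the latter being Top3a (6.53 against 1.93 FPKM) and Cdk2 (20.1 against 11.3 FPKM). Of 9 synapsis and axis genes tested, 2 were lower, Tex12 (112 to 56.1 FPKM) and the cohesin subunit Smc3 (51.1 to 32.0 FPKM). Without the second Zar1/2-null growing library neither passed (adjusted p = 0.077 for Tex12 and 0.0596 for Smc3), nor did Tex12 without the first WT growing library (adjusted p = 0.0889) or Smc3 without the ERCC factor. Sfr1, of strand exchange, was called lower (870 to 586 FPKM) and the histone reader gene Zcwpw1 higher (8.72 to 13.6 FPKM), and both calls were lost in 6 or 7 of 11 alternatives.

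At GV, 8 of 12 crossover genes tested were lower, where 40.6% of all genes were, with Ccnb1ip1 from 28.0 to 8.91 FPKM and Cdk2 from 5.45 to 1.77 FPKM. Trip13, which removes HORMAD proteins from axes, was lower at GV, from 4.78 to 1.65 FPKM (log2 fold change -1.13, adjusted p = 0.000385). Ythdc2 and Dazl, of meiotic entry, fell from 3.01 to 0.619 FPKM and from 256 to 121 FPKM. Under median scaling the calls of Trip13 (adjusted p = 0.0597) and Dazl (adjusted p = 0.143) were lost. Rec114 (listed as 2410076I21Rik) was called lower at GV, from 29.9 to 21.0 FPKM, a direction that turned under median scaling.

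At MII, the named genes that were higher in Zar1/2-null oocytes were Syce2, Mael, Psmc3ip, Mnd1 and Rec114. Syce2, a central element gene like Syce1, was at 31.8 and 29.8 FPKM in WT and 154 and 125 FPKM in Zar1/2-null MII oocytes (log2 fold change 2.14, adjusted p = 1.87e-06). Mael was at 1.86 and 2.81 FPKM in WT and 23.8 and 22.3 FPKM in Zar1/2-null MII oocytes (2.86, adjusted p = 3.87e-07). Psmc3ip and Mnd1, whose products form a complex that assists DMC1, rose from 0.739 to 5.71 FPKM and from 2.02 to 5.04 FPKM, and Rec114 from 0.602 to 3.24 FPKM. The call of Mnd1, whose Zar1/2-null MII libraries were at 6.87 and 3.22 FPKM, was lost in 5 of 11 alternatives, and without the first of these libraries its log2 fold change went from 0.93 to 0.48 (adjusted p = 0.108). Tex15 differed from these in its WT GV level, 0.587 FPKM, where the WT GV means of Syce2, Mael, Psmc3ip, Mnd1 and Rec114 were 29.9 to 396 FPKM. The 7 called lower at MII were Dazl, Rmi1, Sfr1, Ccnb1ip1, Smc1b, Smc3 and Trip13, with log2 fold changes of -1.52, -0.87, -0.74, -0.68, -0.63, -0.47 and -0.47. Of these, Dazl and Rmi1 passed under all 11 alternatives.

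**Figure D5:**
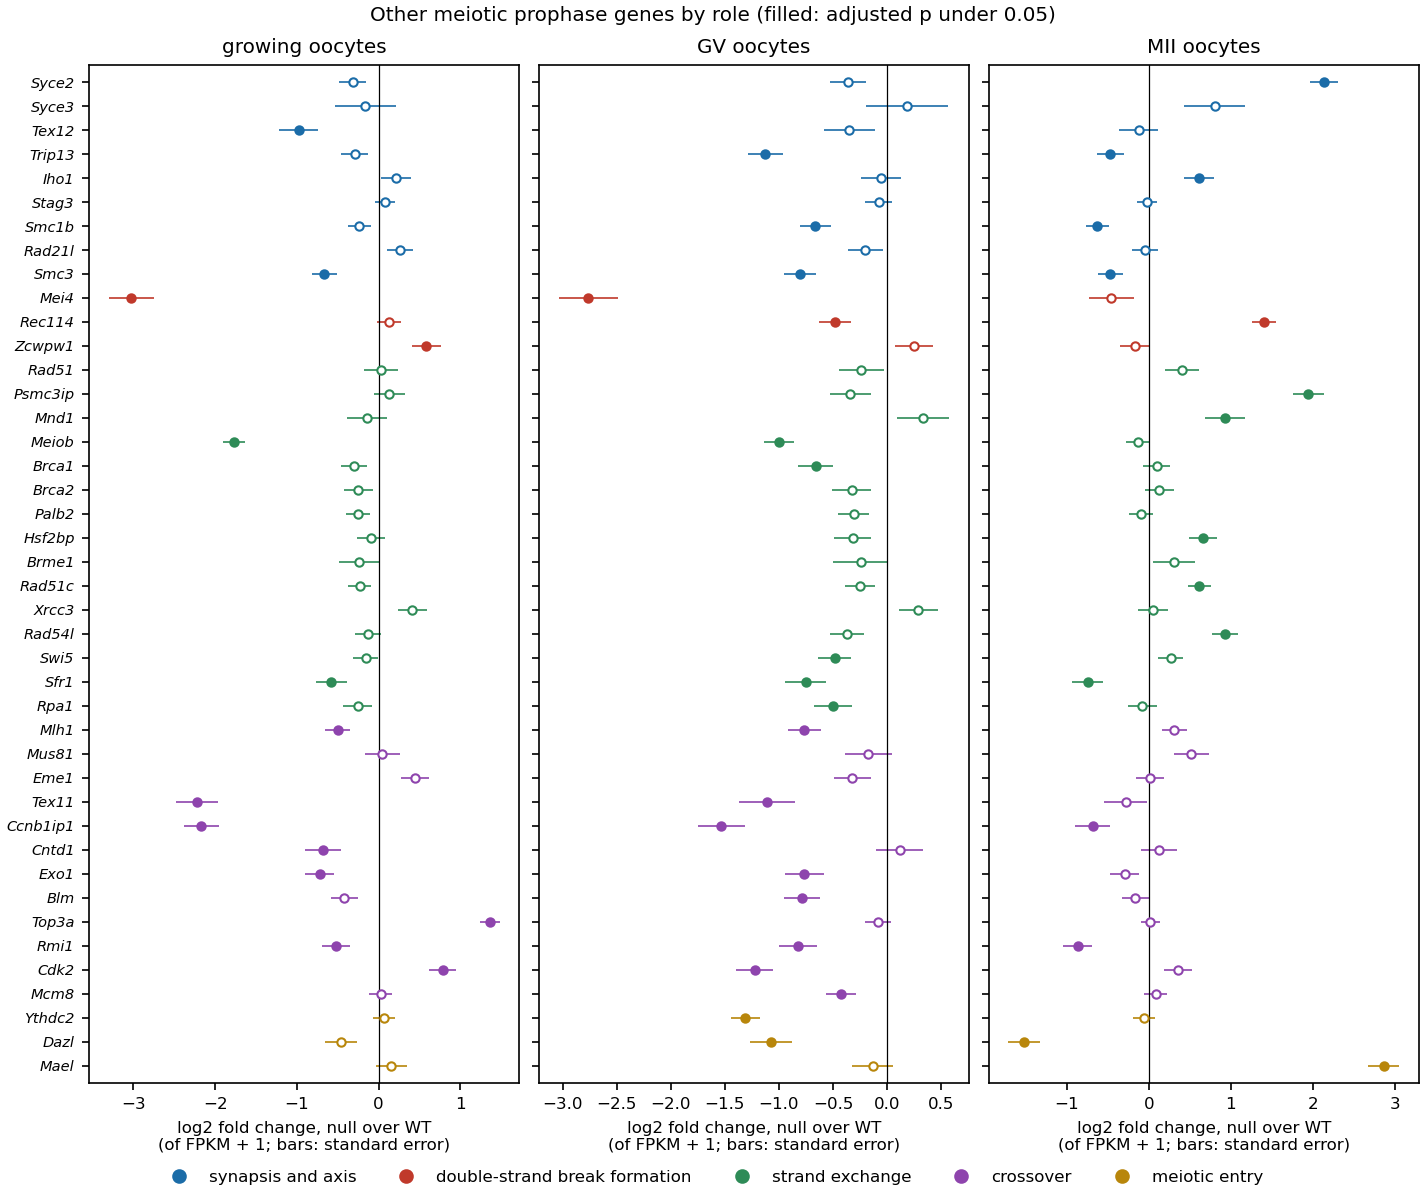
Log2 fold change of FPKM + 1 (horizontal axis, Zar1/2-null over WT, with the standard error as a bar) of 42 other meiotic prophase genes at each stage, with its own scale in each panel and colours for roles. Filled points passed an adjusted p of 0.05; Mei4 lies farthest to the left in growing (-3.03) and GV oocytes (-2.76), and Mael farthest to the right at MII (2.86).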

How the data were processed

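The authors trimmed the reads, mapped them to mm9 with TopHat2 2.1.1, kept unique alignments and quantified UCSC gene models with Cufflinks 2.2.1. The deposited values are FPKM that the authors multiplied by the ERCC percentage of WT growing oocytes over that of the sample. 1 table of 23230 genes and 12 libraries was used, and its columns were matched to samples by their labels.

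The 11502 genes that reached 1 FPKM anywhere entered the test. Group means of log2(FPKM + 1) were modelled in limma 3.58.1 (R 4.3.3) from all 12 libraries, the variance prior following intensity, with Benjamini-Hochberg adjustment across those genes; called means an adjusted p under 0.05. An exact permutation test of 2 against 2 libraries cannot go below 0.333. The script was tested on simulated data. The ERCC factors were recovered from the digits of the values (6 significant digits before scaling), and fragments as whole multiples within 0.02 of a whole number. Library totals are not in the table, so depth is given as a ratio.

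The members and lists were chosen with earlier results of these data known. Named genes are all members and, for each list and stage, the 2 with the largest absolute log2 fold change among those called. Genes like Tex15 were ranked by Pearson's r. Promoter windows came from RefSeq (GRCm38.p6), which held 9 of the 10 members and not Tex15; mm9 positions came from GENCODE. Alternatives left out the ERCC factor, set libraries to the same median, added 0.1 FPKM in place of 1, dropped the filter or the trend, added a replicate block, used the compared libraries alone, or left out each library. For the lists and the genes named from them, those other than scaling and the FPKM added were chosen after seeing the data, as was the crossed pairing. Top3a was named after its values were seen.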

Additional observations from a re-analysis of the deposited data

Results flagged for a closer look

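The genotype effect (Zar1/2-null minus WT, log2 of FPKM + 1) differed between MII and growing oocytes by the limma interaction test for Tex15, by 2.14 (SE 0.34, adjusted p = 0.000784). Tex15 entered this test only through the Zar1/2-null GV and MII libraries where it was high. The limma fit with no filter gave an adjusted p of 0.0168. Of the genes named from the lists, 9 had a more positive effect at MII than at growing. Of all 11502 genes, 2912 were called so and 605 the other way. The list genes were named for large effects at single stages in these same values. That choice favours a difference between stages, so their p-values are given as descriptions. The difference was 2.71 for Mael, 2.57 for Mei4, 2.45 for Syce2, 1.94 for Tex11, 1.81 for Psmc3ip, 1.63 for 4930528F23Rik (Meiob), 1.48 for Ccnb1ip1, 1.28 for 2410076I21Rik (Rec114) and 1.07 for Mnd1, with adjusted p-values from 1.83e-05 to 0.0359. For Mei4, Tex11, Ccnb1ip1 and Meiob it came from a lower level in Zar1/2-null growing oocytes, and for Mael, Syce2, Psmc3ip, Rec114 and Mnd1 from a higher level in Zar1/2-null MII oocytes. The difference was in the other direction for Dazl (-1.06, adjusted p = 0.0143) and Zcwpw1 (-0.76, adjusted p = 0.0375). With 2 libraries per group, no group was large enough to look for a library standing apart.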

How the results depend on the processing

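Of 604 fold changes of members recomputed under an alternative, 54 lost their call, 14 gained one and 20 turned direction; of 385 for genes named from the lists, 67 lost it and 1 turned. The cause was not tested. Where 1 library of a group was left out, the lone library was assumed to vary like the other groups. The scaling mattered most. From GV to MII in WT oocytes, the log2 fold change without the ERCC factor was 0.0701 for Hormad1, 0.81 for Msh4, 1.09 for Sycp1, 1.01 for Sycp2 and 1.71 for Sycp3, and under median scaling 1.00 for Hormad1, 0.0039 for Hormad2, 1.72 for Msh4, 1.92 for Sycp1, 1.92 for Sycp2 and 2.65 for Sycp3. In Zar1/2-null oocytes it was 0.78 for Msh4, 0.65 for Sycp1 and 0.93 for Sycp2 without the factor, and 1.42, 1.20 and 1.59 with 0.94 for Sycp3 under median scaling. From growing to GV in Zar1/2-null oocytes, median scaling gave 0.0836 for Syce1 and 0.0376 for Sycp2, and Rec114 (2410076I21Rik) was at 0.0867 between genotypes at GV.

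Counts of members called higher and lower from GV to MII became 4 and 2 without the factor and 5 and 1 under median scaling in WT oocytes, and 3 and 4 higher in Zar1/2-null oocytes. Of all 11502 genes in WT oocytes, 2267 were higher and 5473 lower without the factor, and 4793 and 3653 under median scaling. In Zar1/2-null oocytes 2248 and 4414 of all genes were higher. At MII both scalings gave 1 higher and 2 lower between genotypes, and 0.1 FPKM added gave 1 lower. From growing to GV, WT oocytes had 1 lower without the factor, 0 under median scaling, and 3 with no filter or the compared libraries alone, while Zar1/2-null oocytes had 0 under both scalings and 2 with the compared libraries alone. With no filter, Dmc1 made 1 higher in growing oocytes and 1 lower in the interaction. Leaving out each library gave 1 to 5 members lower from growing to GV in WT and 2 to 4 in Zar1/2-null oocytes, 1 higher at MII between genotypes, and 1 to 3 higher in the interaction.

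In the lists, counts higher and lower were 5 and 5 in growing and 3 and 7 at GV without the factor. Under median scaling they were 7 lower in growing, 3 higher and 5 lower at GV, and 14 lower at MII. Of all 11502 genes, 1493, 1059 and 3437 were lower at these stages under that scaling. With no filter, 7 list genes were lower in growing oocytes. Leaving out each library gave 4 to 10 lower in growing, 12 to 19 lower at GV, and 5 to 9 higher and 3 to 5 lower at MII.

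Deviations of same-numbered libraries correlated at -0.117 to 0.163 between groups, so the numbers were not taken as pairs. These correlations over genes do not see a shift shared by all genes of a library. They therefore could not exclude a tie of that kind between same-numbered libraries. Both WT growing libraries had an ERCC factor of 1, so each appears to have served as the reference of its own number, and the scaling itself ties libraries by number. The replicate block gave 2 members higher in the interaction (Hormad1 joined Tex15, adjusted p = 0.034) and added Sycp3 (-0.78) to the lower calls from GV to MII in Zar1/2-null oocytes. With the numbers crossed at GV, 21 list genes were lower and 0 higher, and with the block as labelled 20 and 0.

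Depth limited Dmc1, Msh5 and Syce1 at MII, read from 0 to 27 fragments per library.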
